A study of Oryza sativa with 6 samples.

Results

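The flag leaf of rice held 107 genes whose transcript level was strongly lower in the OsRUS1-OX line than in WT. They were selected on the measured levels in the same 6 libraries, out of 37869 genes with an identifier of the Rice Annotation Project (RAP). Levels are given as FPKM, the fragments counted on a gene scaled to its length and to the total of the library. A gene was taken when its mean over the WT libraries was at least 5 FPKM, when this mean was at least 4 times the OsRUS1-OX mean, and when the lowest WT library lay above the highest OsRUS1-OX library. Of the RAP genes, 12755 reached the WT minimum, and the 107 genes are 0.839% of them. A total of 109 genes met the values, and 2 of them were left out by name. Because the contrast between the genotypes chose the genes, their folds below are a description and are supported by no test.

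Both genotypes were grown in the field and sampled at the heading stage, at 11 h on a sunny summer day. WT was the cultivar ZhongHua11, with expanded leaves. OsRUS1-OX was ZhongHua11 carrying an OsRUS1-GFP overexpression transgene, with leaves that were rolled when picked, and 1 transgenic line of several was used. Each library was made from the flag leaves of 3 pooled plants, with 3 libraries for each genotype, so genotype, line and leaf state cannot be told apart.

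The flag leaf is the last leaf that a rice stem makes, and it feeds the grain with sugar and nitrogen. It carries transporters for sugars, ions and amino acids, it makes the mobile flowering proteins called florigens in its veins, and it makes hormones and protective phenolic compounds. Descriptions of the genes were taken from the supplementary tables of the study, which hold a description for 66 of the 107 genes. The other 41 genes are given by identifier only, and 21 of these lie beyond the point on chromosome 7 where the longest of the tables, as used here, ends. The first 2 digits of a RAP identifier give the chromosome.

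The libraries held between 8759812 and 13532579 reads counted on features. The leaf label was checked with genes of mesophyll. The chlorophyll a/b-binding protein CAB2R (OS01G0600900) was at 2424 to 2930 FPKM in WT and at 5063 to 6140 FPKM in OsRUS1-OX, and the photosystem I subunit PsaO (OS04G0414700) was at 361 to 594 and 1268 to 1478 FPKM. OS12G0274700, taken as a gene of the small subunit of Rubisco, was at 74.4 to 157 FPKM in WT and at 51.6 to 66.8 FPKM in OsRUS1-OX. The identifiers taken as markers of meristem (OS03G0727000) and root (OS02G0662000) had 0 FPKM in every library. The floret marker OS03G0215400 was at 4.44 to 9.48 FPKM in WT and at 2.38 to 4.59 FPKM in OsRUS1-OX, and its part in the results was not tested. The sucrose carrier SUT1 (OS03G0170900), which loads the phloem, was at 28.1 to 90.6 FPKM in WT and at 135 to 208 FPKM in OsRUS1-OX. The markers OS09G0532000 and OS03G0327800 of leaf senescence overlapped between the genotypes, with 114 to 246 and 45.9 to 96.0 FPKM in WT and 116 to 195 and 84.5 to 111 FPKM in OsRUS1-OX. The part of these differences in the results was not tested. In whole leaf RNA, fewer cells of a type and less RNA per cell cannot be told apart.

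The WT mean of the 107 genes ran from 5.01 to 604 FPKM with a median of 13.4, against a median of 19.3 for all RAP genes that reached the WT minimum. A level of 5 to 10 FPKM was found for 39 genes, 10 to 50 FPKM for 51 genes and 50 FPKM or more for 17 genes. The median ratio of WT to OsRUS1-OX was 5.52. The ratio was between 4 and 5 for 41 genes, between 5 and 8 for 44 genes and at least 8 for 22 genes, of which 15 reached 10 and 7 reached 20. In 89 genes the lowest WT library was at least 2 times the highest OsRUS1-OX library.

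**Figure D1:**
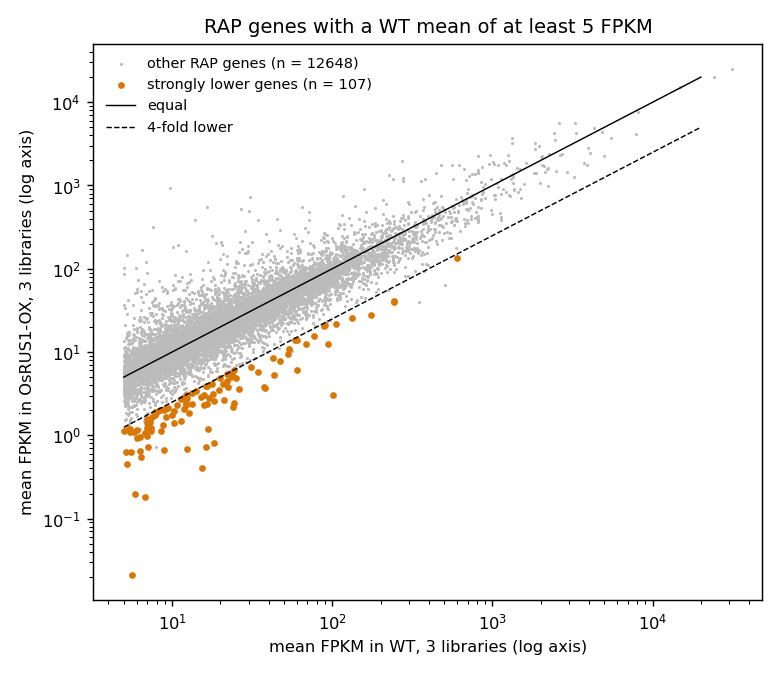
Mean FPKM in WT (x axis) and in OsRUS1-OX (y axis), both on log axes, for the 12755 RAP genes with a WT mean of at least 5 FPKM, each point 1 gene over 3 libraries per genotype. The 107 strongly lower genes (orange) lie under the dashed 4-fold line because they were chosen by it, mostly at WT levels under 50 FPKM. Grey points under that line are genes whose libraries overlapped or that were left out by name.

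All 107 genes passed the filter on low counts, and 105 of them were called lower in OsRUS1-OX by edgeR's quasi-likelihood test on the counts (Benjamini-Hochberg adjusted p under 0.05 over all features). The same call was made for 11.8% of the 19694 features tested and for 15.1% of the 12750 tested RAP genes with a WT mean of at least 5 FPKM. The rule used the same contrast, so nothing is read from this count. The median log2 fold change of the 107 genes in this fit was -2.51, and that of all features tested was -0.01. The 2 genes that were not called, named here after their values were seen, were those in which 1 library stood far from the others of its genotype. OS05G0541900 had 1.81, 1.52 and 18.8 FPKM in WT replicates 1, 2 and 3 against 1.05 to 1.15 FPKM in OsRUS1-OX, and its ratio of 6.63 was 1.495 without WT replicate 3. OS11G0530700 had 12.9 to 33.6 FPKM in WT and 11.3, 0.499 and 1.61 FPKM in OsRUS1-OX replicates 1, 2 and 3, and its ratio of 4.91 was 20.8 without OsRUS1-OX replicate 1.

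The 4 genes just inside the fold threshold were OS03G0307400, OS02G0697400, OS11G0629400 and OS03G0116300, with ratios of 4.001 to 4.02. The 4 genes just outside it were OS08G0185701, OS07G0685500, OS03G0140700 and OS05G0455400, with ratios of 3.97 to 3.997. OS05G0455400, listed with the bHLH transcription factors, was the most abundant of these 8 genes, at 187 to 266 FPKM in WT and 38.4 to 72.8 FPKM in OsRUS1-OX. At the level threshold, OS05G0202300 was just inside with a WT mean of 5.01 FPKM, and OS06G0600400 was just outside with 4.82 FPKM. A further 7 RAP genes met the level and the fold but had libraries that overlapped, and in 5 of them 1 WT library was far above the others. The highest WT library stood out by less in OS07G0619400, with 13.9, 33.8 and 92.7 FPKM in WT replicates 1, 2 and 3.

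Among the most abundant of the 107 genes, OS02G0216300 led by a wide margin, and the tables give no description for it. It had 614, 564 and 633 FPKM in WT replicates 1, 2 and 3 and 181, 90.6 and 130 FPKM in OsRUS1-OX, so that every WT library was at least 3.12 times every OsRUS1-OX library. The next was OS05G0579600, a MYB-related transcription factor weakly similar to the RADIALIS-like protein 6 of Arabidopsis, with 226, 237 and 269 FPKM in WT and 39.3, 35.2 and 47.5 FPKM in OsRUS1-OX. OS11G0489250, without a description, had 325, 176 and 224 FPKM in WT and 65.2, 18.9 and 34.8 FPKM in OsRUS1-OX. The 3 WT libraries of the MYB-related gene lay close together, with a mean of 244 ± 22.3 FPKM (SD, n = 3), whereas OS11G0489250 varied more within both genotypes.

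OS01G0595600, a protein with the alpha/beta hydrolase fold of many esterases, was at 174 ± 29.7 FPKM in WT and 27.9 ± 4.27 FPKM in OsRUS1-OX (SD, n = 3 each). Next came OS03G0137600, which has a domain of unknown function (DUF4079), at 133 ± 28.2 and 25.7 ± 6.73 FPKM (SD, n = 3). In both genes the libraries of each genotype lay within a factor of 2. The undescribed OS11G0598500 had 42.0, 142 and 98.2 FPKM in WT and 14.1, 7.37 and 15.9 FPKM in OsRUS1-OX, and its lowest WT library was still 2.64 times the highest OsRUS1-OX library. The 10 most abundant genes made up 52.1% of the summed WT level of the 107.

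**Figure D2:**
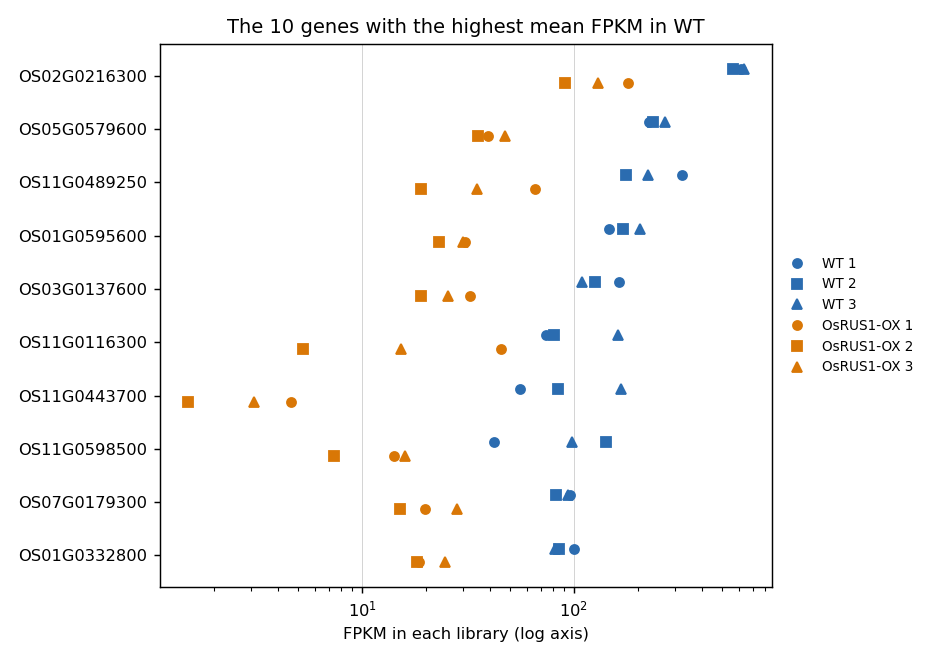
FPKM in each library (log axis) for the 10 genes with the highest WT mean, with WT in blue, OsRUS1-OX in orange and the replicate number by the shape of the mark. The genotypes do not overlap in any of the 10 genes, which the rule required, and OsRUS1-OX replicate 2 (orange square) is the lowest library in each of them.

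The largest ratios belonged mostly to genes of low level. OS07G0561800, similar to an organic cation/carnitine transporter of Arabidopsis, had 33, 122 and 63 reads in the WT libraries and 1, 0 and 0 reads in OsRUS1-OX. Against a limit of 3 reads per library it was at least 28.6-fold lower in OsRUS1-OX. OS02G0636600, a GRAM domain protein filed with genes that respond to abscisic acid, had 45, 38 and 61 reads in WT and 3, 0 and 2 reads in OsRUS1-OX, at least 20.1-fold lower. These were the only 2 of the 107 genes with at most 3 reads in every OsRUS1-OX library.

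OS11G0443700 combined a high level with a large ratio. The pathway table lists it under tropane, piperidine and pyridine alkaloid synthesis. It had 55.4, 83.7 and 166 FPKM in WT and 4.63, 1.502 and 3.11 FPKM in OsRUS1-OX, a ratio of 33.0 that stayed between 22.6 and 44.1 when any 1 library was left out. OS08G0507100, without a description, had 20.1, 7.64 and 18.6 FPKM in WT and 0.227, 0.153 and 0.851 FPKM in OsRUS1-OX, a ratio of 37.7 that was 81.4 without OsRUS1-OX replicate 3. The undescribed OS01G0186600 had 6.10, 15.9 and 26.5 FPKM in WT and 0.641, 0.269 and 1.26 FPKM in OsRUS1-OX, a ratio of 22.3 that was 35.5 without OsRUS1-OX replicate 3. All 3 genes kept a lowest WT library more than 4 times above the highest OsRUS1-OX library.

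**Figure D3:**
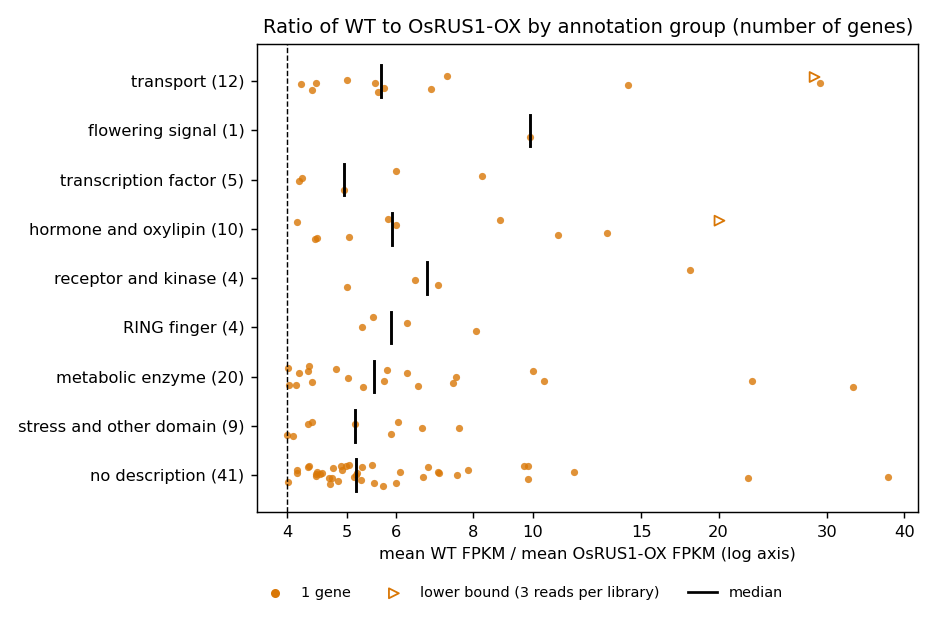
Ratio of the mean WT to the mean OsRUS1-OX FPKM (log axis) of 106 of the 107 genes by annotation group, with 1 point per gene, a black bar at the median of the group and an open triangle for the 2 genes whose ratio is a lower bound against 3 reads per library. The dashed line is the 4-fold threshold, and the group medians lie between 4.95 and 9.90.

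HD3A (OS06G0157700) encodes a florigen, a small protein of the phosphatidylethanolamine-binding family that moves from the leaf to the shoot apex and starts flowering there, mainly in short days. HD3A had 24.1, 25.03 and 62.5 FPKM in WT and 3.80, 4.16 and 3.32 FPKM in OsRUS1-OX. WT replicate 3 was more than 2 times the other WT libraries, whereas the OsRUS1-OX libraries lay close together. Without WT replicate 3 the ratio was 6.54 in place of 9.90. Reads shared with close copies of the gene could change these values.

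The hormone and oxylipin group held 10 genes, of metabolism or of response, with ratios from 4.16 upwards. Lipoxygenases add oxygen to linolenic acid in the chloroplast at the start of jasmonate synthesis. The lipoxygenase 8 type gene OS08G0509100 had 30.4, 14.6 and 26.5 FPKM in WT and 2.14, 1.66 and 2.71 FPKM in OsRUS1-OX, and its neighbour OS08G0508800, of the lipoxygenase 7 type, had 10.1, 4.94 and 7.10 FPKM in WT and 1.21, 0.932 and 1.55 FPKM in OsRUS1-OX. The order of the libraries within each genotype was the same for the pair. The authors computed FPKM from uniquely mapped reads, so reads matching both genes equally would be left out. The part of close copies in these values was not tested. CCD8B (OS01G0746400), a carotenoid cleavage dioxygenase of strigolactone synthesis, had 6.28, 4.03 and 5.57 FPKM in WT and 1.31, 1.32 and 0.907 FPKM in OsRUS1-OX. OS09G0457100 is listed under the carotenoid pathway, and the listing does not say whether it makes or breaks down a product. It was the most even of these genes within WT, at 13.9, 13.4 and 12.9 FPKM against 3.96, 2.24 and 3.46 FPKM.

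Of the genes tied to hormone response, SAUR26 (OS06G0671600), of a family of short-lived transcripts induced by auxin, had 8.45, 4.40 and 13.8 FPKM in WT and 0.645, 0.866 and 0.509 FPKM in OsRUS1-OX. OS03G0297600 has a START-like domain, the fold that abscisic acid receptors share, and is listed under hormone signal transduction. It had 26.4, 36.1 and 66.1 FPKM in WT and 7.86, 7.08 and 10.6 FPKM in OsRUS1-OX, so the OsRUS1-OX libraries were close together below a wide WT range. A second START-like gene, OS05G0202300, had a ratio of 4.44. The group also held oxygenase enzymes, which are not described as response genes. OS08G0249900, an oxygenase that uses 2-oxoglutarate, had 10.8, 15.7 and 9.31 FPKM in WT and 3.63, 1.67 and 0.827 FPKM in OsRUS1-OX. OS04G0581000, similar to the Arabidopsis oxygenase DMR6, had a ratio of 8.84. These ratios moved to 9.55 for OS08G0249900 (from 5.84) without OsRUS1-OX replicate 1 and to 13.98 for OS04G0581000 without OsRUS1-OX replicate 3.

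**Figure D4:**
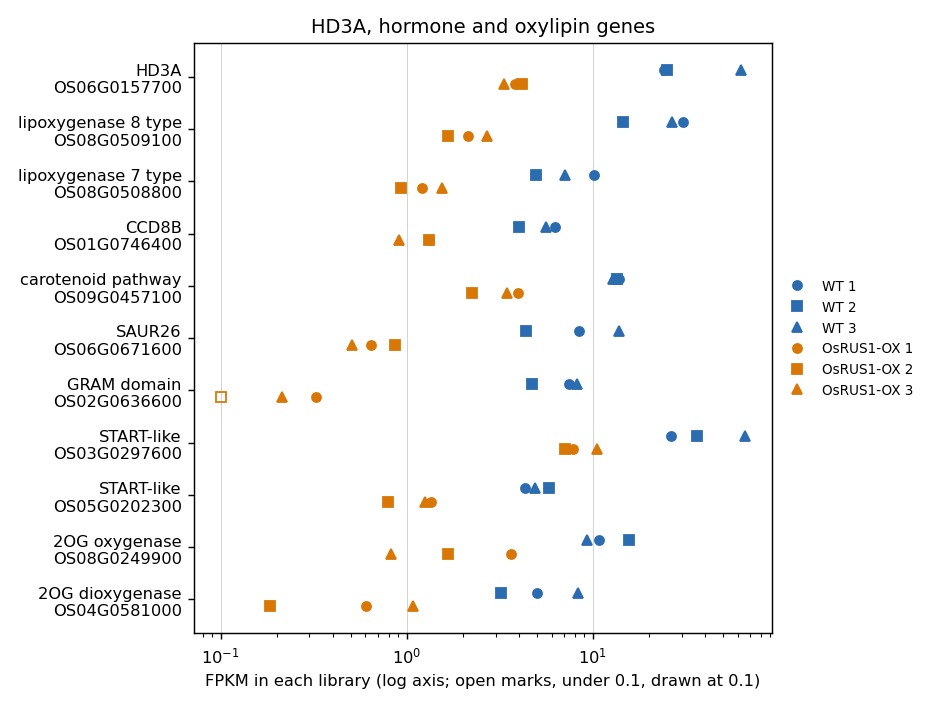
FPKM in each library (log axis) for HD3A and the 10 genes of the hormone and oxylipin group, with WT in blue, OsRUS1-OX in orange and the replicate number by shape; the open mark is a value under 0.1 FPKM drawn at 0.1. WT replicate 3 (blue triangle) stands apart for HD3A, and the lipoxygenase pair repeats the same order of libraries.

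The 12 transport genes covered sugars, amino acids, nitrate and several ions. The most abundant was OS10G0561300, similar to the Arabidopsis proton-coupled hexose importer STP1, with 73.3, 48.0 and 84.6 FPKM in WT and 14.01, 6.14 and 17.0 FPKM in OsRUS1-OX. BOR2 (OS01G0175700), of the bicarbonate transporter family whose BOR proteins export borate in Arabidopsis, had 21.0, 40.1 and 16.9 FPKM in WT and 4.86, 2.53 and 3.33 FPKM in OsRUS1-OX. HAK1 (OS04G0401700), a high-affinity potassium carrier, had 19.6, 17.6 and 21.4 FPKM in WT and 3.73, 2.41 and 4.32 FPKM in OsRUS1-OX. Of these 3 genes HAK1 was the most even within WT, with a mean of 19.5 ± 1.88 FPKM (SD, n = 3).

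MFS1 (OS01G0279400), similar to the zinc-induced facilitator-like transporter 2 of Arabidopsis, had 21.3, 19.2 and 10.03 FPKM in WT and 1.80, 0.704 and 1.03 FPKM in OsRUS1-OX, a ratio of 14.3. OS06G0109300, of the nodulin MtN21 type in the drug/metabolite transporter family, had 2.98, 3.06 and 11.5 FPKM in WT and 0.317, 0.178 and 0.104 FPKM in OsRUS1-OX. Its ratio of 29.3 fell to 15.1 without WT replicate 3. The remaining transport genes had ratios of 6.85 for the potassium channel subunit OS01G0718700, 5.73 for the amino acid transporter OS04G0562100, 4.998 for the second MtN21 type gene OS03G0149300 and 4.45 for the peptide transporter type gene OS07G0603800. The ratios were 4.39 for the MATE efflux protein OS08G0480000, which belongs to a family that exports organic compounds, and 4.21 for OS04G0480200, a Nar2 protein that partners high-affinity nitrate transporters.

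The group of 5 transcription factors was, led by the MYB-related OS05G0579600. OS01G0975300, a MYB protein similar to MYB59 of Arabidopsis, had 49.2, 68.5 and 112 FPKM in WT and 20.4, 11.0 and 15.05 FPKM in OsRUS1-OX. The bHLH gene OS02G0673500, similar to LONESOME HIGHWAY, which acts in the vascular development of Arabidopsis roots, had 46.9, 31.3 and 51.7 FPKM in WT and 5.37, 4.30 and 6.002 FPKM in OsRUS1-OX, the largest ratio of the 5 at 8.29. OS07G0628500, also of the bHLH family, had 9.17, 14.8 and 18.4 FPKM in WT and 2.79, 3.48 and 3.87 FPKM in OsRUS1-OX. In contrast to most of the 107 genes, its OsRUS1-OX replicate 1 was the lowest of the genotype. OS11G0446000, filed with the bHLH family, had a ratio of 4.22.

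The 4 receptor or kinase genes and the 4 RING finger genes had WT means under 20 FPKM. OS04G0369100, a mannose-binding lectin of the S-locus type, had 16.9, 9.15 and 11.1 FPKM in WT and 1.34, 0.339 and 0.384 FPKM in OsRUS1-OX, a ratio of 18.0 that was 34.2 without OsRUS1-OX replicate 1. OS10G0142600, similar to a wall-associated kinase of Arabidopsis, was at 18.4 ± 5.14 and 2.61 ± 0.586 FPKM (SD, n = 3). The receptor kinase OS04G0303100 and the leucine-rich repeat protein OS02G0156600 had ratios of 4.997 and 6.44. RING finger proteins attach ubiquitin to other proteins, and their 4 genes (OS02G0561900, OS05G0468900, OS04G0419550 and OS05G0439000) had ratios between 5.29 and 8.10. The lowest of these, for OS05G0468900, was 8.54 without OsRUS1-OX replicate 1.

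Metabolic enzymes formed the largest described group, with 20 genes. OS11G0116300, of the chalcone-flavanone isomerase family in flavonoid synthesis, had 73.9, 80.1 and 160 FPKM in WT and 45.04, 5.28 and 15.3 FPKM in OsRUS1-OX. Its libraries were spread widely in both genotypes, and its ratio of 4.79 was 3.48 without OsRUS1-OX replicate 2 and 10.2 without replicate 1. ARSM2 (OS07G0179300), filed with the methyltransferases of tocopherol synthesis, was far more even, with 95.3, 82.3 and 93.9 FPKM in WT and 19.8, 15.1 and 28.0 FPKM in OsRUS1-OX. The serine carboxypeptidase OS01G0332800 was at 88.9 ± 9.76 FPKM in WT and at 20.5 ± 3.69 FPKM in OsRUS1-OX (SD, n = 3).

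Several of the enzymes act in phenylpropanoid chemistry, the source of lignin and flavonoids. The acyltransferase OS05G0278500 had 8.54, 10.6 and 35.8 FPKM in WT and 0.773, 0.216 and 1.43 FPKM in OsRUS1-OX, with a ratio of 22.7 that was 11.9 without WT replicate 3 and 37.0 without OsRUS1-OX replicate 3. OS08G0441500, listed under phenylpropanoid synthesis, had a ratio of 10.01, and 5.83 without WT replicate 3. OS02G0697400, filed as a 4-coumarate CoA ligase, had a ratio of 4.02, 2.86 without OsRUS1-OX replicate 2 and 9.23 without OsRUS1-OX replicate 1. Thus the ratio of each of these 3 genes moved by more than a factor of 1.4 with a single library.

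The other enzymes belong to several routes. ADP-glucose pyrophosphorylase (OS05G0580000), which makes the sugar donor of starch, had a ratio of 5.80, and ThiC (OS03G0679700), which makes the pyrimidine part of thiamine, had 5.01. L-aspartate oxidase (OS02G0134400), the first enzyme of NAD synthesis in plastids, had 5.74. GDP-mannose pyrophosphorylase (OS01G0847200), which feeds ascorbate and cell wall synthesis, had 4.18, and the xyloglucan fucosyltransferase OS02G0275200 had 4.14. The glutathione S-transferase OS03G0283000 had 10.4, and 16.8 without OsRUS1-OX replicate 3. The 3 UDP-glucosyltransferases, which attach glucose to small molecules, had ratios between 4.39 and 7.43, and without OsRUS1-OX replicate 1 those of OS03G0757100 and OS04G0556400 were 6.92 and 11.5. The remaining enzymes were OS10G0389300 of the porphyrin and chlorophyll pathway at 7.52, OS09G0498500 of peroxisome and amino acid pathways at 5.31 and the hydrolase fold protein OS03G0116300 at 4.02.

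A further 9 genes had a stress annotation or another named domain. BBD1 (OS01G0702000), a bifunctional nuclease filed with the wounding response, had 43.3, 26.2 and 33.7 FPKM in WT and 6.62, 5.17 and 5.71 FPKM in OsRUS1-OX. The DnaJ protein OS08G0452900, a partner of heat shock proteins, had a ratio of 6.62, and the caleosin OS06G0254600, of a family of calcium-binding proteins of lipid droplets, had 4.39. The membrane protein OS03G0196400 had 15.1, 30.7 and 25.1 FPKM in WT and 7.27, 4.83 and 4.31 FPKM in OsRUS1-OX. OS07G0122000, with the domain DUF1719, had 22.8, 12.8 and 15.5 FPKM in WT and 4.74, 1.36 and 2.36 FPKM in OsRUS1-OX. The last 3 genes, with poorly known domains, had ratios of 4.001 (OS03G0307400), 4.09 (OS06G0120200) and 7.59 (OS02G0608000), the last being 15.7 without OsRUS1-OX replicate 1. The ratio of OS07G0122000 was 6.04, and 9.16 without the same library.

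The 107 genes were spread over all 12 chromosomes, from 4 genes each on chromosomes 9, 10 and 12 to 17 on chromosome 1. As a share of the RAP genes that reached the WT minimum, they were fewest on chromosome 3 (0.496%) and most frequent on chromosome 11 (1.52%). The authors' gene lengths, recovered from counts and FPKM, had a median of 1347 bases for the 107 genes and 1461 bases for the other 12648 RAP genes with a WT mean of at least 5 FPKM. The quartiles of the lengths overlapped widely, at 894 to 1910 bases and 999 to 2011 bases. Within 5 places of each other in the list of RAP identifiers lay 5 pairs of the 107 genes, and the lipoxygenase pair and the undescribed pair OS01G0793900 and OS01G0794100 were among the direct neighbours.

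The tested genes next to the 107 on either side in the list, which the rule did not choose, were counted as a comparison. Of these 208 flanking genes, 34 (16.3%) were called lower in OsRUS1-OX by edgeR's test (adjusted over all features), against 11.8% of all features and 15.1% of the RAP genes with a WT mean of at least 5 FPKM. A total of 24 (11.5%) were called higher, against a share of 11.8% over all features in that direction. With 2 neighbours on each side, 59 of 413 genes (14.3%) were called lower. The median log2 fold change of the flanking genes was -0.05. Without OsRUS1-OX replicate 2 the calls were 20 lower and 13 higher, beside 1120 and 1404 over all features. Without OsRUS1-OX replicate 3 they were 19 and 11, beside 1045 and 1354. Without WT replicate 1 the higher calls were 15, beside 1796. With all 6 libraries, 2316 features were called lower and 2328 higher. The share of lower flanking genes was near the background with all 6 libraries. Shares with 1 library left out were not computed, and no difference was tested.

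The lower neighbours with the largest log2 fold changes, given first, stood beside genes described above. OS05G0579700, the next identifier after OS05G0579600 and with the same MYB-related description, had 10, 19 and 43 reads in WT and 0, 0 and 1 reads in OsRUS1-OX, at least 9.65-fold lower against 3 reads per library (adjusted p = 0.0031 by edgeR's quasi-likelihood test). It did not reach the WT minimum. OS04G0369000, an MSP domain protein before the lectin OS04G0369100, had a log2 fold change of -4.02 (adjusted p = 0.0012 by edgeR's quasi-likelihood test). HAK13 (OS06G0671000), a potassium carrier before SAUR26, had -3.33 (adjusted p = 0.011 by edgeR's quasi-likelihood test). The level of HAK13 was near the floor, so its fold is uncertain. It had 0.872, 0.464 and 0.672 FPKM in WT and 0.136, 0.061 and 0 FPKM in OsRUS1-OX. Smaller changes were found for both DUF1719 genes flanking OS07G0122000, with log2 fold changes of -1.72 (OS07G0121800) and -2.05 (OS07G0122100). As members of 1 family the 3 genes may have lost reads that match more than 1 of them. Some other lower neighbours, such as OS08G0508700 at -2.46, changed more than this pair.

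Other neighbours changed in the opposite direction. OS01G0718500, an arabinogalactan peptide gene before the potassium channel subunit OS01G0718700, had 2, 0 and 1 reads in WT and 62, 70 and 37 reads in OsRUS1-OX, at least 15.1-fold higher against 3 reads per library (adjusted p = 0.0016 by edgeR's quasi-likelihood test). OS05G0468800, with a phosphatidylethanolamine-binding domain and before the RING finger gene OS05G0468900, had a log2 fold change of 4.08 (adjusted p = 0.0011 by edgeR's quasi-likelihood test). OS11G0116200, filed with RING finger proteins and before the chalcone-flavanone isomerase family gene, was also higher, with 24.2 to 25.5 FPKM in WT and 77.1 to 144 FPKM in OsRUS1-OX. These neighbours were named after their values were seen.

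The spread of the 107 genes among the replicates is given as a description, because the replicate values set the means and the lack of overlap that the rule used. Their coefficient of variation over the 3 libraries had a median of 32.4% in WT and 37.0% in OsRUS1-OX. For the other RAP genes with a WT mean of at least 5 FPKM, which no fold had selected, the medians were 15.2% and 9.03%. When 1 library was left out and the rule applied again, 78 of the 107 genes were still taken without WT replicate 3, 80 without OsRUS1-OX replicate 2 and 103 without OsRUS1-OX replicate 1. The part of this selection, and of counting error at low levels, in the spread was not tested.

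Among the OsRUS1-OX libraries, replicate 2 was the lowest in 84 of the 107 genes (78.5%) and replicate 1 the highest in 63 (58.9%). The order from replicate 1 through 3 down to 2 was found in 53 genes (49.5%). Relative to the mean of the genotype, the median level was 1.19 in replicate 1, 0.688 in replicate 2 and 1.03 in replicate 3. The summed level of the 107 genes was 826, 449 and 663 FPKM in OsRUS1-OX replicates 1, 2 and 3, and 3438, 3225 and 4140 FPKM in WT. A low library helps a gene to meet the rule, so nothing about the libraries themselves is read from this order.

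The mirrored rule, with at least 5 FPKM in OsRUS1-OX, at least 4 times the WT mean and no overlap, took 444 RAP genes, 3.36% of the 13217 that reached that level. Replicate 2 was the highest OsRUS1-OX library in 336 of them (75.7%) and replicate 1 the lowest in 303 (68.2%), with medians of 1.25 and 0.755 relative to the mean of the genotype. These genes were chosen on the same values too. OsRUS1-OX replicate 2 had the fewest reads of its genotype (11918655), and the scaling factors of the 3 libraries were between 1.01 and 1.03. The part of depth and of the plants pooled in these orders was not tested.

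**Figure D5:**
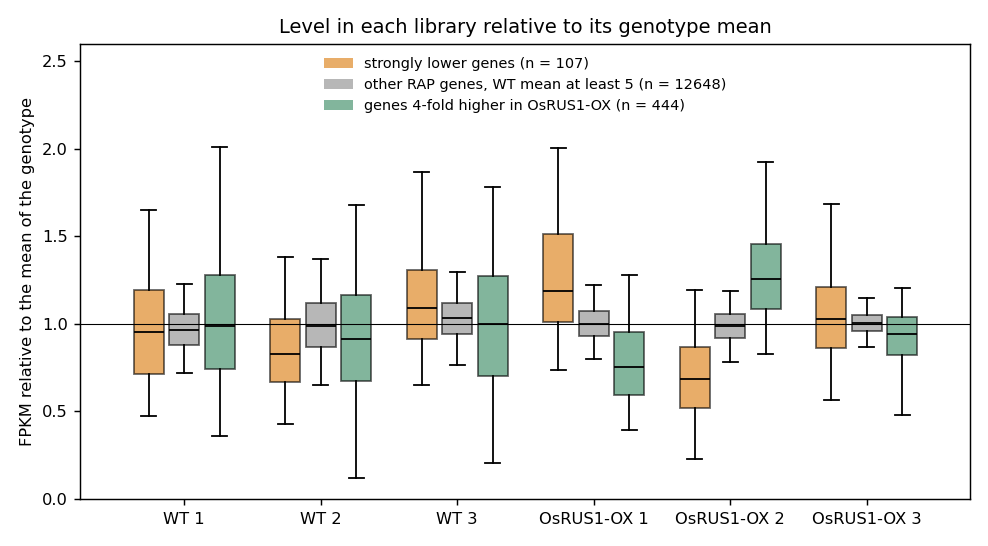
FPKM in each library relative to the mean of its genotype, for the 107 strongly lower genes (orange), the other RAP genes with a WT mean of at least 5 FPKM (grey) and the 444 genes 4-fold higher in OsRUS1-OX (green, of which 429 had reads in WT). Boxes show the quartiles and the median over genes and whiskers the 5th to 95th percentiles; in OsRUS1-OX replicates 1 and 2 the orange and green boxes shift in opposite directions, and both lists were chosen on these values.

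Among the WT libraries, replicate 3 was the highest in 51 of the 107 genes (47.7%). This share was 42.0% for the other RAP genes with a WT mean of at least 5 FPKM. WT replicate 3 was at least 2 times both other WT libraries in 13 of the 107 genes, and since a single high WT library raises the mean on which the rule rests, this count is a description of the genes taken. Among these were HD3A, OS05G0278500, OS06G0109300, OS08G0441500, OS11G0116300 and 7 genes without a description. WT replicate 1 stood out in this way in 6 genes and WT replicate 2 in 1 gene, none of them described. With the 107 genes kept and 1 library left out at a time, the ratio fell under 4 for at least 1 of the 6 libraries in 47 genes and under 3 in 6 genes.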

How the data were processed

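Flag leaf RNA of 3 WT and 3 OsRUS1-OX libraries was analysed. The authors aligned filtered read pairs to the rice genome of Ensembl Plants with TopHat2 2.0.12 and counted reads per gene with HTSeq 0.6.1, as named in the submitters' processing notes. The counts were deposited as raw whole numbers, and the authors computed the deposited FPKM values from the counts and the gene lengths. Whether counting used strand is not given in the sources used here, so overlapping genes and close copies are uncertain. Columns were matched to samples by genotype and number, with 0 columns left unused.

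The rule was applied to FPKM. The test across features was run on the counts in R 4.3.3 with edgeR 4.0.16 (TMM, filterByExpr by genotype, quasi-likelihood test, Benjamini-Hochberg adjustment, threshold 0.05), and the scripts were tested on simulated data. Alternatives were DESeq2 1.42.0, limma 3.58.1 on log2 FPKM with a pseudocount of 1 or 0.1 at a mean FPKM of at least 0.5, other normalizations and filters, a replicate block and leaving out each library. The replicates were independent collections of pooled plants, and every pair of a genotype differed beyond counting noise.

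The genes, groups and lists were chosen with earlier results of these data known. The rule for named genes took the 10 genes of highest level, the 10 of largest ratio, up to 4 per group and those with a known symbol, of which some are given by their ratio alone, and other genes were named after their values were seen. The p-values of the contrast between WT and OsRUS1-OX weigh the genotype difference against the spread between these collections. The annotation groups were assigned by hand after the genes were known. The values of 1 of the genes are not reported here.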

Additional observations from a re-analysis of the deposited data

How the results depend on the processing

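The number of genes taken moved to 194 with a 3-fold minimum, 66 with a 5-fold minimum, 208 with a WT minimum of 1 FPKM and 68 with a WT minimum of 10 FPKM. It ranged from 82 (without OsRUS1-OX replicate 2) to 156 (without OsRUS1-OX replicate 1) when 1 library was left out, and 78 of the 107 genes were still taken without WT replicate 3. It was 114 with overlap allowed, 108 with medians and 126 with FPKM rescaled by the TMM factors, and the rescaled list held all 107 genes. The number of the 107 called lower lay between 77 (only features with at least 10 counts in every library, which removes low genes) and 107 over all alternatives, and was 97 with limma at either pseudocount and 104 with DESeq2. Over all features, limma called 1511 lower with a pseudocount of 1 and 1505 with 0.1, against 2316 in edgeR. The lower calls ranged from 1045 to 2617 and the higher calls from 1354 to 2602 when 1 library was left out, with 1120 lower and 1404 higher without OsRUS1-OX replicate 2 and the fewest without OsRUS1-OX replicate 3. Limma called 21 flanking genes lower at either pseudocount, and leaving out 1 library gave 19 to 35 lower and 11 to 26 higher. With 2 neighbours on each side, 59 were called lower because more genes were counted. Scaling by library totals alone gave 1879 lower and 2678 higher calls over all features. The median log2 fold change of the 107 genes was -2.07 in limma on log2(FPKM + 1), where the pseudocount shrinks low genes, and between -2.73 and -2.35 without 1 library.

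The sources do not say whether equal replicate numbers of the genotypes share a collection, and they were not taken as pairs. The deviations of equal numbers from their genotype means correlated at 0.13, -0.09 and 0.11 over genes for numbers 1, 2 and 3. With so few libraries these values cannot settle the pairing. With the replicate block, 105 of the 107 genes were called lower, as without it, with a median log2 fold change of -2.54, and 1942 features were called lower and 2071 higher. All 42 genes chosen by the rule for named genes kept a negative log2 fold change under every alternative run for them.

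The counts of gene families and the promoter motifs could not be run, because descriptions matched to RAP identifiers and promoter sequences were not analysed here. With 3 pooled libraries per genotype, replicates measure only the spread between these libraries.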

Other observations

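Features outside the RAP annotation were not part of the comparison. Of these, 36 met the same values for level, fold and lack of overlap. Genes strongly lower by the rule (107) were fewer than genes strongly higher by the mirrored rule (444), and neither number was tested.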
